A study of Mus musculus with 6 samples.

Results

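Respiratory complex I, NADH:ubiquinone oxidoreductase, is the entry enzyme of the mitochondrial respiratory chain. It passes electrons from NADH to ubiquinone and pumps protons across the inner membrane. 35 of its nuclear-encoded subunit genes were looked up by the gene symbol of their probe set, synonyms included, among the 25428 probe sets of the array, and 33 of the 35 were found, with 1 probe set each. Ndufs5 and Ndufb4 had no probe set under these symbols. The 35 genes do not include every subunit of the enzyme.

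Total RNA was taken from 1 lung lobe of each of 6 male mice, all of which breathed 10% oxygen for 7 days, and each lobe was measured on 1 GeneChip Mouse Gene 2.0 ST array. 3 lungs came from Nfat5(SMC)-/- mice, offspring of a cross of Nfat5fl/fl mice with SM-MHC-CreERT2 mice, in which a Cre recombinase driven by the smooth muscle myosin heavy chain promoter is switched on by tamoxifen (1 mg daily by injection on 5 days, at an age of 10 to 12 weeks, with 2 to 3 weeks of rest before hypoxia) and deletes Nfat5, the gene of an osmosensitive transcription factor, from smooth muscle cells (SMCs). The other 3 were Nfat5fl/fl lungs, in which the floxed allele was left intact and the mice received the oil miglyol without tamoxifen. The deletion is aimed at SMCs only, and Nfat5 in other cells was not measured separately. Each value is that of a whole lobe of mixed cells, and tamoxifen and genotype cannot be told apart. The labels number the mice 1, 2 and 4 in each group.

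Levels are deposited log2 values, so a difference of 1 is a doubling, and they rank a gene between lungs but not 1 gene against another. The targeted gene Nfat5 was at 8.23, 7.72 and 7.89 in the Nfat5(SMC)-/- lungs of mice 1, 2 and 4, against 9.18, 8.62 and 9.21 in the Nfat5fl/fl lungs of mice 1, 2 and 4. The groups did not overlap, and the difference of -1.06 had an adjusted p of 0.0707 (limma, Benjamini-Hochberg over all probe sets). The lung of Nfat5(SMC)-/- mouse 1 stood apart, with a mean correlation of 0.970 with its own group, against 0.980 and 0.981 for Nfat5(SMC)-/- mice 2 and 4 and 0.987 to 0.991 for the Nfat5fl/fl lungs. Results are therefore also given without it. Markers of lung epithelium such as Sftpc (13.3 to 13.6 in Nfat5(SMC)-/- lungs, 13.6 in all Nfat5fl/fl lungs) were near the top of the array's range in every lung.

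Complex I has the shape of an L. The N module at the tip of the matrix arm oxidises NADH with a flavin and iron-sulphur clusters, the Q module below it hands the electrons to ubiquinone, and the P module is the membrane arm that pumps protons, here divided into a proximal part next to the Q module and a distal part. A few core subunits carry out the chemistry, and the many supernumerary subunits around them serve assembly and stability. The proton-pumping core subunits of the membrane arm are encoded by mitochondrial DNA, and no probe set for them was found on the array. The measured members were 8 subunits of the N module, 7 of the Q module, 8 of the proximal P module, 9 of the distal P module and the acyl carrier protein Ndufab1, which sits in both arms.

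Complex I subunits lay mostly higher in Nfat5(SMC)-/- than in Nfat5fl/fl lungs, with a typical difference of 0.36 on the log2 scale, and no single subunit passed the test over the whole array. 29 of the 33 members had a difference above 0, against 49.7% of all probe sets, although that of Ndufab1 was 0.00. The median difference of 0.36 compares with -0.00081 over all probe sets. 0 of 33 members were called at an adjusted p under 0.05 by limma, where 0.26% of all probe sets were called higher and 0.558% were called lower. With no adjustment 17 members had a p under 0.05, all of them higher, where 8.19% of all probe sets were higher at this p and 11.1% were lower (14% higher among those above the array median). In 15 members all 3 Nfat5(SMC)-/- lungs exceeded all 3 Nfat5fl/fl lungs, which held for 11.8% of all probe sets and for 15.6% of those above the array median, where 31 of the 33 members lie. In 0 members did all 3 lie below all 3, which held for 15% of all probe sets. The lowest adjusted p of a member was 0.0580, for Ndufa2. With the lung of Nfat5(SMC)-/- mouse 1 left out, 6 members passed over all probe sets, namely Ndufa2, Ndufs8, Ndufa1, Ndufa8, Ndufb5 and Ndufb9, all higher, where 1.39% of all probe sets were called higher. With Nfat5fl/fl mouse 2 left out as well, 8 passed, all higher, where 2.16% of all probe sets were called higher. That lung was the highest control in 21 of 33 members. Leaving it out by itself raises the differences of those 21, which do not include Ndufa1 and Ndufb5. Leaving out Nfat5(SMC)-/- mouse 1 likewise raised the differences of the 6 called members except Ndufa2. That of Ndufa1 went from 0.36 to 0.54, and that of Ndufa2 from 0.40 to 0.36. Neither the 6 nor the 8 calls are therefore separate support. A fit with a weight for each array gave the lung of Nfat5(SMC)-/- mouse 1 the smallest weight (0.18). It called 17 members, all higher, where 5.42% of all probe sets were called higher. As this fit plays down the same lung, these 17 calls are no separate support either.

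**Figure D1:**
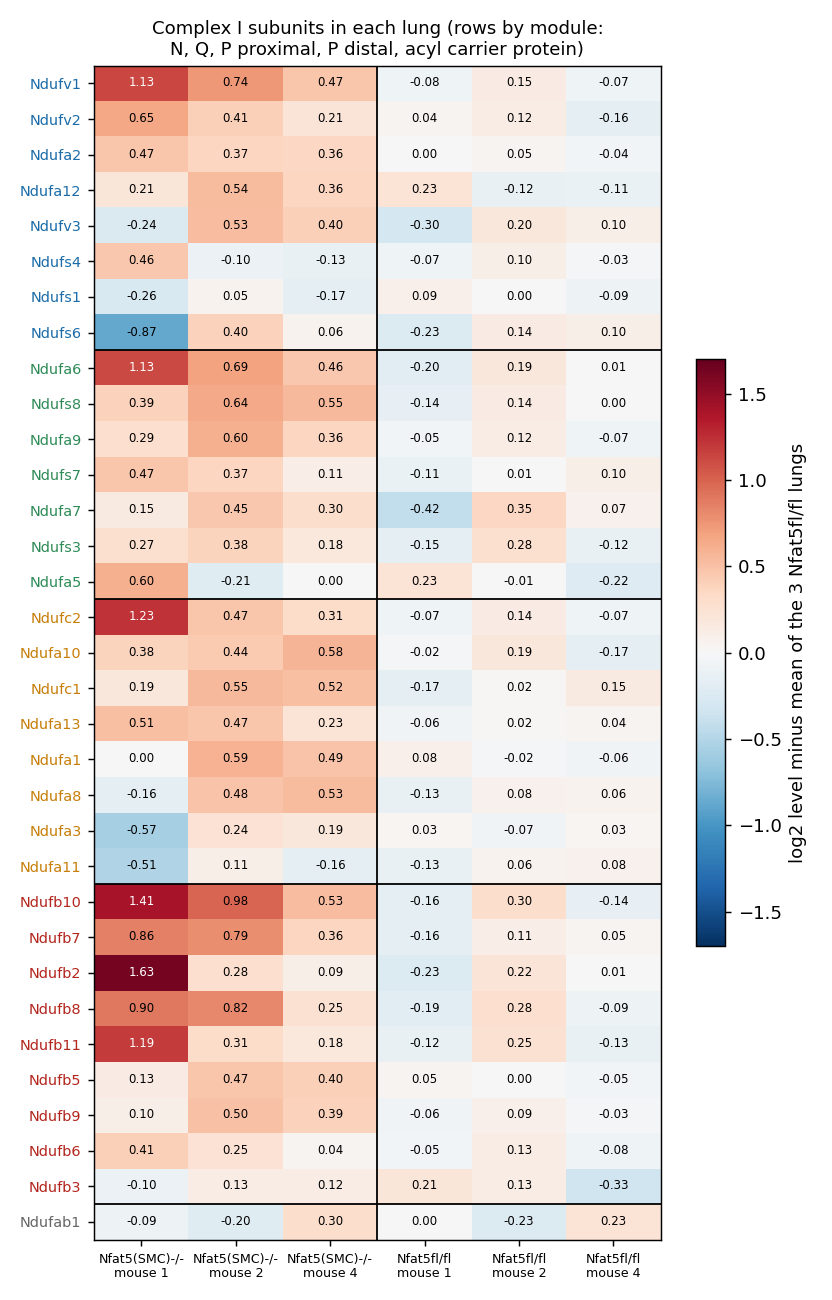
Level of each of the 33 measured complex I subunits (rows, ordered by module and then by difference) in each lung (columns, Nfat5(SMC)-/- on the left and Nfat5fl/fl on the right) as log2 level minus the mean of the 3 Nfat5fl/fl lungs, printed in each cell and coloured from blue (lower) to red (higher). Most cells of Nfat5(SMC)-/- mice 2 and 4 are red, whereas mouse 1 holds both the deepest red (Ndufb2, 1.63) and the deepest blue (Ndufs6, -0.87).

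Nuclear genes of complex I carry promoters read by general factors, among them nuclear respiratory factor 1 (encoded by Nrf1), the ETS factor GABP (Gabpa and Gabpb1) and Yy1. The 250 bases upstream of the start, from RefSeq (GRCm38.p6), were available for 30 of the 33 measured members. The NRF1 motif (GCGCA, then any base, then GCGC) occurred on either strand in 4 of them (13.3%), against 3.86% of all 27025 promoters and 5.30% of those of protein-coding genes. These 4 were Ndufs6, Ndufa5, Ndufa11 and Ndufa8, and the first 3 are the members with the lowest difference in the N, Q and proximal P modules. The 4 had a median difference of -0.0016 (range -0.19 to 0.28), against 0.41 (range -0.05 to 0.97) for the 26 without the motif. Without the lung of Nfat5(SMC)-/- mouse 1 the medians were 0.10 and 0.42, with Ndufs6 at 0.23, Ndufa5 at -0.10, Ndufa11 at -0.03 and Ndufa8 at 0.51. The contrast was not tested. The ETS motif CCGGAAG occurred in 3 (Ndufb6, Ndufb7 and Ndufs3; 10%, against 9.13% of protein-coding promoters), and the YY1 motif AAGATGGC in 0 of 30, against 1.51% of protein-coding promoters. The motifs do not overlap in these windows, a match is not a bound site, and motifs after the start were not searched. The 4 windows with the NRF1 motif, its letters in capitals, are given together with those of Ndufb10 and Ndufv1, the 2 members with the largest differences, in which none of the 3 motifs was found.
Ndufs6, difference -0.14, chr13:73328483-73328732, minus strand: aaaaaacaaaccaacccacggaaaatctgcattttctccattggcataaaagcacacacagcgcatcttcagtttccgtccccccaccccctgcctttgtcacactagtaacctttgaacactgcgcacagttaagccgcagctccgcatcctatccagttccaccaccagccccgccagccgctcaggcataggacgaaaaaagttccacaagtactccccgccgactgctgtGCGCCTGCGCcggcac
Ndufa5, difference 0.13, chr6:24527527-24527776, minus strand: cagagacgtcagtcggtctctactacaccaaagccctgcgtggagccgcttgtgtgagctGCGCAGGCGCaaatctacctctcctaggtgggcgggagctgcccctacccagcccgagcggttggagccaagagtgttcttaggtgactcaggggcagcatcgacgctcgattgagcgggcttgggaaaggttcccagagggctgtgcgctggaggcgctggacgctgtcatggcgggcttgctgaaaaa
Ndufa11, difference -0.19, chr17:56717512-56717761, plus strand: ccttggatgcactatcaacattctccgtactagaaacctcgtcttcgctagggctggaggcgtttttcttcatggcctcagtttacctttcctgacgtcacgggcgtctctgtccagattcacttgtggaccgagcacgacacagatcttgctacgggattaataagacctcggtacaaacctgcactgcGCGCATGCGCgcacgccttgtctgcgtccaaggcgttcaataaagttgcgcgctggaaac
Ndufa8, difference 0.28, chr2:36049339-36049588, minus strand: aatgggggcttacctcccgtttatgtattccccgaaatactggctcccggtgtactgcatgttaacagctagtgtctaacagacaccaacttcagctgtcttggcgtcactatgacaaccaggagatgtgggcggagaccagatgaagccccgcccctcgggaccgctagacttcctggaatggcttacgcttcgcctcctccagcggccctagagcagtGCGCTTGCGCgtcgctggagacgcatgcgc
Ndufb10, difference 0.97, chr17:24724424-24724673, minus strand: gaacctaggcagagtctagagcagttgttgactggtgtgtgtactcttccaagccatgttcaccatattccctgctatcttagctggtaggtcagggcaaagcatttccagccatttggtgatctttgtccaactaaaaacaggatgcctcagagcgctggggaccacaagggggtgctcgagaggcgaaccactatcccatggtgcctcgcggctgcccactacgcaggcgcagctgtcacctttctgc
Ndufv1, difference 0.78, chr19:4012756-4013005, minus strand: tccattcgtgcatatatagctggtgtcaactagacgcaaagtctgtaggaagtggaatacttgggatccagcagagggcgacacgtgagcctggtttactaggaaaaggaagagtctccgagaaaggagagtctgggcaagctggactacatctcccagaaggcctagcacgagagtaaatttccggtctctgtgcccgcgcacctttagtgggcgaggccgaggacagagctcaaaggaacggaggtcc
In the capitals of Ndufs6 and Ndufa8 the motif reads on the opposite strand. Counted from the RefSeq start used here, its first base lay at -16 in Ndufs6, at -30 in Ndufa8, at -60 in Ndufa11 and at -190 in Ndufa5. Whether these starts are where transcription begins was not checked. The Ndufa5 window holds an ATG close to its end, with no stop codon in frame after it. Its last bases may therefore be coding, and its position of -190 may be counted from a start inside the gene.

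In the N module, 6 of 8 members were higher and 2 lower, with a median difference of 0.30, and 4 had an unadjusted p under 0.05, all higher. The flavin-carrying subunit Ndufv1, where NADH binds, was at 9.19, 8.79 and 8.52 in Nfat5(SMC)-/- lungs, against 7.98, 8.20 and 7.99 in Nfat5fl/fl lungs. Every Nfat5(SMC)-/- lung exceeded every control, the highest being mouse 1, and the difference was 0.78 ± 0.18 (SE, n = 3 each; 1.72-fold; adjusted p = 0.0904, limma). Its partner Ndufv2, an iron-sulphur protein, was at 8.70, 8.46 and 8.26 in Nfat5(SMC)-/- lungs, against 8.09, 8.17 and 7.89 in Nfat5fl/fl lungs, a difference of 0.42 ± 0.13 (adjusted p = 0.167). The order of the 3 Nfat5(SMC)-/- lungs was the same for this pair. The supernumerary Ndufa2, a small protein with a thioredoxin fold, was at 7.86, 7.76 and 7.75 in Nfat5(SMC)-/- lungs, against 7.39, 7.44 and 7.34 in Nfat5fl/fl lungs. The difference of 0.40 ± 0.07 had the smallest SE and the smallest p of all members, with SDs of 0.065 in Nfat5(SMC)-/- and 0.046 in Nfat5fl/fl lungs. Ndufa12, a paralogue of the assembly factor Ndufaf2, had a difference of 0.37 with overlapping groups.

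The third core subunit of the N module did not follow the first pair. Ndufs1, which carries the largest number of iron-sulphur clusters of the enzyme, differed by -0.12 (95% interval -0.37 to 0.12). Ndufs4, whose loss causes a fatal encephalopathy in mice, differed by 0.08 (-0.33 to 0.49), and Ndufv3 by 0.23 (-0.34 to 0.80). The zinc-binding Ndufs6 was at 8.01, 9.28 and 8.94 in Nfat5(SMC)-/- lungs, against 8.65, 9.02 and 8.98 in Nfat5fl/fl lungs. Mouse 1 lay far below, mouse 2 above and mouse 4 within the range of the controls, and the difference of -0.14 ± 0.32 turned to 0.23 without Nfat5(SMC)-/- mouse 1. That of Ndufs4 turned to -0.11 without the same lung, in which Ndufs4 was highest.

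In the Q module all 7 members had a difference above 0, with a median of 0.32, and 4 had an unadjusted p under 0.05. Ndufs8, a core subunit that passes electrons through its iron-sulphur clusters, was at 9.09, 9.34 and 9.25 in Nfat5(SMC)-/- lungs, against 8.57, 8.85 and 8.70 in Nfat5fl/fl lungs. The groups were separate, and the difference was 0.52 ± 0.10 (SE, n = 3 each; 1.44-fold; adjusted p = 0.0730, limma). Ndufa6, which binds the acyl carrier protein at the border with the N module, was at 8.87, 8.44 and 8.21 in Nfat5(SMC)-/- lungs, against 7.55, 7.94 and 7.75 in Nfat5fl/fl lungs, a difference of 0.76 ± 0.19 (adjusted p = 0.109). Ndufa9, which holds a bound NADPH near the ubiquinone site, was at 8.68, 9.00 and 8.76 in Nfat5(SMC)-/- lungs, against 8.35, 8.52 and 8.33 in Nfat5fl/fl lungs, a difference of 0.42 ± 0.11 (adjusted p = 0.112). Ndufa6 was highest in Nfat5(SMC)-/- mouse 1, whereas Ndufs8 and Ndufa9 were lowest there among the Nfat5(SMC)-/- lungs.

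The other core subunits of the Q module, Ndufs7 with the last iron-sulphur cluster before ubiquinone and Ndufs3 without a cluster, differed by 0.32 (95% interval 0.04 to 0.59) and 0.28 (-0.05 to 0.60). Ndufa7 differed by 0.30, with 1 control, mouse 2, above 2 of the Nfat5(SMC)-/- lungs. The lowest difference was that of Ndufa5, at 7.50, 6.69 and 6.90 in Nfat5(SMC)-/- lungs, against 7.13, 6.88 and 6.68 in Nfat5fl/fl lungs. Only mouse 1 exceeded the controls, and the difference of 0.13 turned to -0.10 without it. The median of the module depended on Nfat5fl/fl mouse 2, the highest control for most members, without which it was 0.48.

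In the proximal P module, 6 of 8 members were higher and 2 lower, with a median difference of 0.38, and 4 had an unadjusted p under 0.05. Ndufa13, a supernumerary subunit also known as a regulator of cell death, was at 5.42, 5.39 and 5.14 in Nfat5(SMC)-/- lungs, against 4.86, 4.93 and 4.96 in Nfat5fl/fl lungs. The groups were separate (difference 0.40 ± 0.09, SE, n = 3 each; 1.32-fold; adjusted p = 0.0957, limma), although these levels lie near the array median of 4.96. Ndufa10, which resembles nucleoside kinases, was at 9.45, 9.52 and 9.65 in Nfat5(SMC)-/- lungs, against 9.05, 9.26 and 8.90 in Nfat5fl/fl lungs, a difference of 0.47 ± 0.11 (adjusted p = 0.0986). Ndufc1 was at 9.19, 9.55 and 9.51 in Nfat5(SMC)-/- lungs, against 8.83, 9.01 and 9.15 in Nfat5fl/fl lungs, a difference of 0.42 ± 0.13 (adjusted p = 0.160). Its lowest Nfat5(SMC)-/- lung, mouse 1, exceeded the highest control by little.

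The remaining members of this part split at Nfat5(SMC)-/- mouse 1. Ndufa1, an X-linked subunit needed for assembly, differed by 0.36 with mouse 1 and by 0.54 without it, and Ndufa8, a disulphide-bonded protein of the intermembrane space, by 0.28 with it and 0.51 without it. Ndufa3 differed by -0.05 with mouse 1 and by 0.21 without it. Ndufa11, the lowest of the module, was at 4.27, 4.89 and 4.62 in Nfat5(SMC)-/- lungs, against 4.65, 4.84 and 4.86 in Nfat5fl/fl lungs, below the array median in all 6 lungs, and differed by -0.19 ± 0.16. Ndufc2 went the other way. It differed by 0.67 ± 0.24, with all 3 Nfat5(SMC)-/- lungs above the controls, and by 0.39 without mouse 1.

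**Figure D2:**
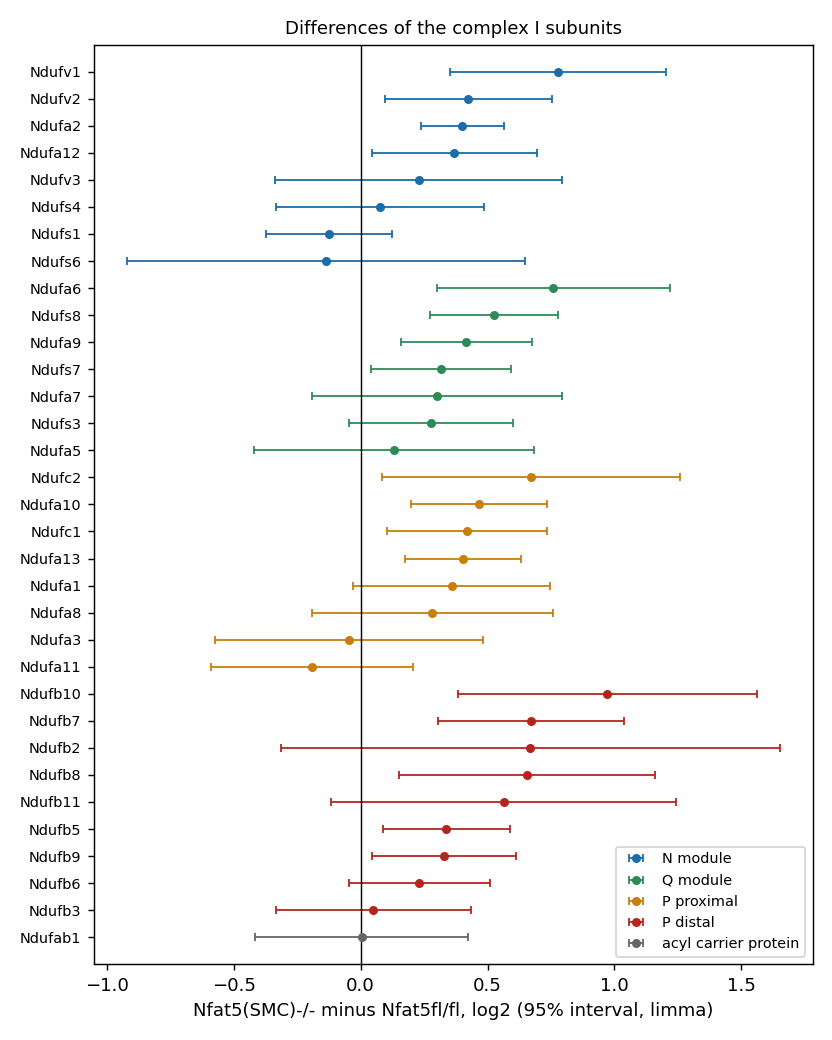
Difference of each measured subunit between Nfat5(SMC)-/- and Nfat5fl/fl lungs on the log2 scale (points) with its 95% interval from limma (bars, n = 3 lungs each), coloured by module. 29 points lie above 0, the widest intervals belong to Ndufb2 and Ndufs6, and the narrowest to Ndufa2.

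In the distal P module, which lies at the far end of the membrane arm, all 9 members had a difference above 0, with a median of 0.56, and 5 had an unadjusted p under 0.05. Ndufb10, a disulphide-bonded subunit on the intermembrane side, had the largest difference of all members. It was at 8.40, 7.98 and 7.52 in Nfat5(SMC)-/- lungs, against 6.84, 7.29 and 6.86 in Nfat5fl/fl lungs, a difference of 0.97 ± 0.24 (SE, n = 3 each; 1.96-fold; adjusted p = 0.109, limma). Ndufb7, also on the intermembrane side, was at 7.64, 7.58 and 7.15 in Nfat5(SMC)-/- lungs, against 6.63, 6.89 and 6.83 in Nfat5fl/fl lungs, a difference of 0.67 ± 0.15 (adjusted p = 0.0903). Both were separate between the groups, with mouse 1 the highest and mouse 4 the lowest of the Nfat5(SMC)-/- lungs. Ndufb5, a membrane-spanning subunit, was at 7.69, 8.03 and 7.96 in Nfat5(SMC)-/- lungs, against 7.60, 7.55 and 7.51 in Nfat5fl/fl lungs, a difference of 0.34 ± 0.10 (adjusted p = 0.158). Ndufb9, which binds the second copy of the acyl carrier protein, differed by 0.33, also with separate groups.

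The sizes of several distal differences rested on Nfat5(SMC)-/- mouse 1. Ndufb2, picked for its spread after its values were seen, was at 8.57, 7.23 and 7.04 in Nfat5(SMC)-/- lungs, against 6.72, 7.16 and 6.96 in Nfat5fl/fl lungs. Its difference of 0.67 fell to 0.19 without mouse 1. That of the X-linked Ndufb11 was 0.56 with this lung and 0.25 without it. Ndufb8 differed by 0.66 with 2 of 3 Nfat5(SMC)-/- lungs above all controls, and Ndufb6 by 0.23 with 2 of 3. Ndufb3, the lowest of the module, was at 4.14, 4.37 and 4.36 in Nfat5(SMC)-/- lungs, against 4.45, 4.37 and 3.90 in Nfat5fl/fl lungs, all below the array median, and differed by 0.05 (95% interval -0.33 to 0.44). Ndufab1, the acyl carrier protein, which also serves mitochondrial fatty acid synthesis, was at 6.35, 6.23 and 6.74 in Nfat5(SMC)-/- lungs, against 6.43, 6.20 and 6.67 in Nfat5fl/fl lungs. The lungs of mice with the same number were close, and the difference was 0.00 (-0.42 to 0.42).

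The modules were set side by side as the mean of their members in each lung, relative to the mean of the 3 Nfat5fl/fl lungs. The distal P module was at 0.72, 0.50 and 0.26 in Nfat5(SMC)-/- lungs, against -0.08, 0.17 and -0.09 in Nfat5fl/fl lungs. The proximal P module was at 0.13, 0.42 and 0.33 in Nfat5(SMC)-/- lungs, against -0.06, 0.05 and 0.01 in Nfat5fl/fl lungs. In both, each Nfat5(SMC)-/- lung lay above each control, but mouse 1 was the highest lung for the distal and the lowest Nfat5(SMC)-/- lung for the proximal part. The Q module was at 0.47, 0.42 and 0.28 in Nfat5(SMC)-/- lungs, against -0.12, 0.15 and -0.03 in Nfat5fl/fl lungs. The N module was at 0.20, 0.37 and 0.20 in Nfat5(SMC)-/- lungs, against -0.04, 0.08 and -0.04 in Nfat5fl/fl lungs. Over all 33 members the means were 0.37, 0.41 and 0.27 in Nfat5(SMC)-/- lungs, against -0.07, 0.10 and -0.03 in Nfat5fl/fl lungs. Whether the modules differ from one another was not tested, and without mouse 1 their median differences were 0.34 (N), 0.38 (Q), 0.45 (proximal P) and 0.44 (distal P). The 6 measured core subunits had a median difference of 0.37 and the 27 supernumerary subunits one of 0.36.

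**Figure D3:**
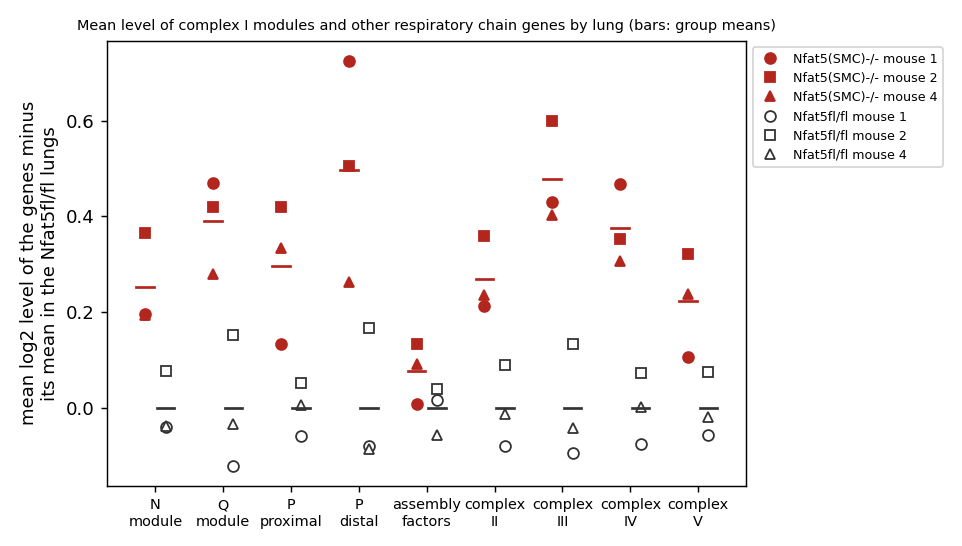
Mean log2 level of the genes of each group in each lung minus its mean in the Nfat5fl/fl lungs (filled red symbols on the left of each column, Nfat5(SMC)-/-; open symbols on the right, Nfat5fl/fl; symbol shapes give the mouse number and bars the group means). All Nfat5(SMC)-/- lungs lie above all Nfat5fl/fl lungs in the 4 modules, with mouse 1 at 0.72 in the distal and 0.13 in the proximal P module, while the assembly factors lie between 0.01 and 0.13 in Nfat5(SMC)-/- lungs.

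Nfat5(SMC)-/- mouse 1 was the highest or the lowest lung of its group for most members, as for most probe sets of the array. It was the highest of the 3 Nfat5(SMC)-/- lungs in 15 members, the lowest in 16 and the middle lung in 2, and over all probe sets it was highest in 39.5%, lowest in 44.5% and in the middle in 16.0%. The 15 in which it was highest were 6 of the distal P module, 4 of N, 3 of Q and 2 of the proximal P module. Relative to the mean of Nfat5(SMC)-/- mice 2 and 4 it lay 0.11 to 1.44 above in these 15, and 0.14 to 1.10 below in the 16. Without it the first 15 had a median difference of 0.35 and the 16 one of 0.45. In the Nfat5fl/fl group, mouse 2 was the highest control in 21 of 33 members, which held for 41.2% of all probe sets.

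**Figure D4:**
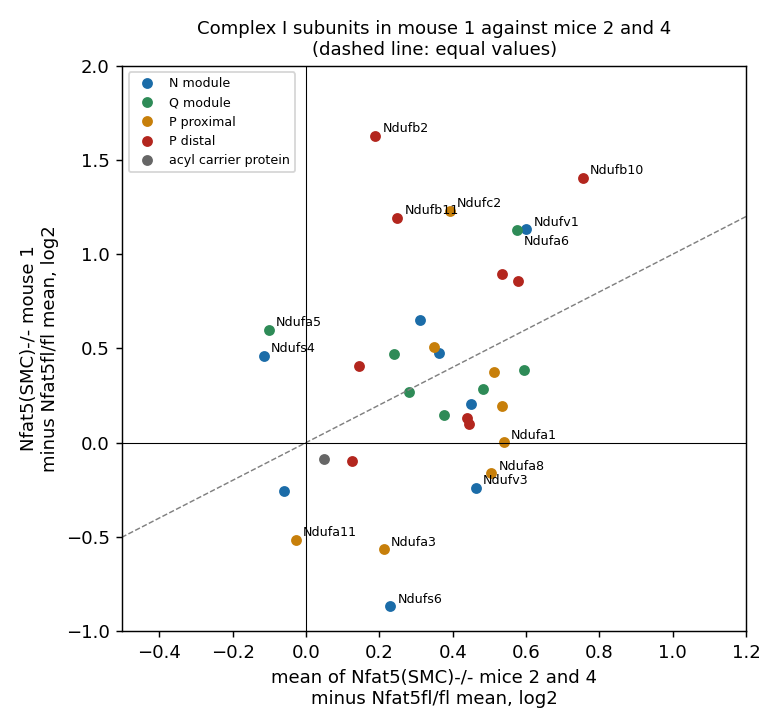
Each point is 1 measured subunit, placed by its mean in Nfat5(SMC)-/- mice 2 and 4 (horizontal) and by its level in Nfat5(SMC)-/- mouse 1 (vertical), both as log2 minus the mean of the Nfat5fl/fl lungs, with modules by colour, the dashed line at equal values and names for the subunits over 0.45 from it. Mouse 1 lies up to 1.44 above the other 2 lungs (Ndufb2) and up to 1.10 below them (Ndufs6).

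Related genes were counted in the same way. Of 3 further genes, Ndufb1, a distal subunit outside the 35, differed by 0.29 (adjusted p = 0.136) and Ndufa4, once counted with complex I and now with complex IV, by 0.38 (adjusted p = 0.185), both separate between groups, and Ndufa4l2 by 0.15. Of 18 measured complex I assembly factors, 10 were higher and 8 lower, with 0 called and a median of 0.03. At an unadjusted p under 0.05, 5 were higher (8.19% of all probe sets) and 0 lower. In 6 all 3 Nfat5(SMC)-/- lungs exceeded all controls (11.8% of all probe sets). In 1 all 3 lay below all controls (15% of all probe sets). The smallest p values were those of Ecsit (0.35, adjusted p = 0.111), Timmdc1 (0.34, adjusted p = 0.124) and Dmac1 (0.31, adjusted p = 0.127), which help to build the membrane arm. The list of assembly factors was thus mixed with a median near 0, where most subunits lay above 0, and this contrast was not tested.

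The other complexes of oxidative phosphorylation had median differences of 0.28 in complex II (4 of 4 higher), 0.48 in complex III (7 of 8), 0.42 in complex IV (8 of 9) and 0.17 in complex V (8 of 11). Here 1 gene each rose over all probe sets in complexes III, IV and V. Cyc1, cytochrome c1, was at 7.91, 7.61 and 7.55 in Nfat5(SMC)-/- lungs, against 6.82, 6.88 and 6.81 in Nfat5fl/fl lungs (difference 0.85, adjusted p = 0.0416). Cox4i1, a regulatory subunit of cytochrome c oxidase, differed by 0.79 (adjusted p = 0.0490) and Atp5e, in the stalk of ATP synthase, by 0.76 (adjusted p = 0.0416). All 3 calls ended in most alternatives, with adjusted p up to 0.228 on leaving out Nfat5fl/fl mouse 4.

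Of 10 regulators of respiratory genes, 5 were higher and 5 lower with 0 called, and the 3 at an unadjusted p under 0.05 were all lower. Nrf1 was at 6.11, 6.22 and 6.38 in Nfat5(SMC)-/- lungs, against 6.64, 6.64 and 6.73 in Nfat5fl/fl lungs, a difference of -0.43 ± 0.09 with separate groups (SE, n = 3 each; adjusted p = 0.0761, limma). The GABP subunits Gabpb1 (-0.32, adjusted p = 0.171) and Gabpa (-0.30, adjusted p = 0.211) lay below all controls as well. Yy1, outside these 3, is the other factor whose motif was searched above. It was at 8.17, 8.25 and 8.31 in Nfat5(SMC)-/- lungs, against 7.99, 8.16 and 7.75 in Nfat5fl/fl lungs, with a difference of 0.28 and narrowly separate groups (adjusted p = 0.261, limma). The groups overlapped for all other regulators. Of these, Esrra differed by 0.45 (0.11 to 0.64 on leaving out 1 lung), Tfam by 0.13 and Ppargc1a by -0.29. Ppargc1b differed by 0.05, Esrrb by 0.01 and Esrrg by -0.05. Activity of the factors was not measured here.

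Most genes of fat cells were also higher in Nfat5(SMC)-/- than in Nfat5fl/fl lungs. All 10 adipocyte markers were higher in Nfat5(SMC)-/- lungs, with a summed log2 level of 80.5 to 88.6 in Nfat5(SMC)-/- lungs, against 59.8 to 67.0 in Nfat5fl/fl lungs, and 4 were called (Cidec, Plin1, Dgat2 and Cfd). Of 8 brown adipocyte markers 6 were higher and 0 called, with sums of 48.8 to 52.5 in Nfat5(SMC)-/- lungs, against 40.2 to 48.4 in Nfat5fl/fl lungs. Those with the smallest p were Cox8b (difference 1.63, adjusted p = 0.0986), Cox7a1 (0.75, adjusted p = 0.103) and Cidea (2.08, adjusted p = 0.137), each separate between the groups. Ucp1 and Elovl3 are given by lung as defining genes of brown fat, a choice made after their values were seen. Ucp1, the uncoupling protein of brown fat, a tissue rich in mitochondria, was at 8.97, 9.41 and 8.32 in Nfat5(SMC)-/- lungs, against 4.47, 8.42 and 4.32 in Nfat5fl/fl lungs. For Ucp1 the groups thus overlapped, with Nfat5fl/fl mouse 2 slightly above Nfat5(SMC)-/- mouse 4. Elovl3, a fatty acid elongase, was at 4.30 to 4.38 in Nfat5(SMC)-/- lungs, against 4.12 to 4.36 in Nfat5fl/fl lungs, close to the lower quartile of the array (4.30). Its difference was 0.08, that of Prdm16 0.03, that of Dio2 -0.01 and that of Ppargc1a -0.29, all with overlapping groups. The part of these cells in the complex I differences was not tested, and in whole lobes more cells of a type and more RNA per cell cannot be told apart.

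Markers of skeletal muscle were high in mouse 1 and low in mouse 2 of both groups. The 5 skeletal muscle markers had mean levels of 1.44, -1.41 and 0.40 in Nfat5(SMC)-/- mice 1, 2 and 4, against 1.09, -1.12 and 0.03 in Nfat5fl/fl mice 1, 2 and 4, relative to the mean of the Nfat5fl/fl lungs. The 6 cardiac markers were at -0.59, 0.15 and 0.31 in Nfat5(SMC)-/- lungs, against -0.25, -0.09 and 0.33 in Nfat5fl/fl lungs. Of the skeletal markers 3 of 5 were higher, of the cardiac markers 2 of 6, and 0 of either were called. Of 5 epithelial markers 1 was higher, of 3 endothelial markers 1, and of 5 smooth muscle markers 1, with 0 called. The endothelial markers Pecam1 (-0.22, adjusted p = 0.194) and Cdh5 (-0.31, adjusted p = 0.240) were below all controls in all 3 Nfat5(SMC)-/- lungs, with an unadjusted p under 0.05, and their part in the complex I differences was not tested.

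Subunits of complex I are short genes, and differences on these arrays went with gene length. The members spanned a median of 8.40 kb of genome, against 22.3 kb for all probe sets above the array median. Over the 33 members the rank correlation of difference with span was -0.39, and over 12672 probe sets above the array median it was -0.42, across genes that are not independent replicates. With a smooth curve on span subtracted from every gene, the median difference of the members was 0.31, against 0.36 as measured. The part of gene length in the remaining difference was not tested further.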

How the data were processed

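Lung RNA of 6 hypoxia-exposed mice (3 Nfat5(SMC)-/-, 3 Nfat5fl/fl) was measured on 1 array each. The deposited values are log2 levels which the authors computed by RMA (named in the submitters' processing notes) with quantile normalisation, using a custom chip definition (version 22) with 1 probe set per Entrez gene. The genome build was not given in the sources used here. Quantile normalisation gives all arrays 1 distribution, so differences are relative to the remaining genes and a shift common to all genes cannot be seen. The number of arrays limits precision. 1 lobe of each mouse was used, so replicates are mice.

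The groups were compared with limma 3.58.1 in R 4.3.3 (lmFit, eBayes, two-sided, no covariate) over all 25428 probe sets, with Benjamini-Hochberg adjustment at 0.05. An exact permutation test of 3 against 3 cannot go below 0.1. Data were simulated with 200 changed genes of 25428 and independent noise. There limma recovered 144 changed by 1 on the log2 scale and 0 changed by 0.5. In such data differences as small as most of those of the members would be missed, and the share missed on the real arrays may differ. Members and lists were chosen with earlier results of these data known. Ndufa6 and Ndufa7, at the border of N and Q, were counted with Q. Values by lung are given for any member called, for up to 3 members per module with the smallest p and for the one with the lowest difference. Of other lists up to 3 genes with the smallest p and those called are named. The regulators and the brown adipocyte markers are all named. Alternatives were a mean-dependent prior, the methods' t-test, array weights, cyclic loess, only probe sets above the median level, the mouse number as a block, a correction for gene span, leaving out each lung, leaving out Nfat5(SMC)-/- mouse 1 with Nfat5fl/fl mouse 2, and Ndufa6 and Ndufa7 counted with N. Some members have retrocopies or pseudogenes, and whether probes are shared with them was not tested. Promoters were matched by Entrez gene identifier for 30 members.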

Additional observations from a re-analysis of the deposited data

How the results depend on the processing

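26 of 33 members kept the sign of their difference in all 14 alternatives. Over all probe sets, 208 genes were called (66 higher), and 2 with a mean-dependent prior, 0 with the methods' t-test, 3263 with array weights, 1 with cyclic loess, 112 of the probe sets above the median level, 41 (20 higher) corrected for gene span, 0 to 980 on leaving out 1 lung (980 without Nfat5(SMC)-/- mouse 1) and 1452 without Nfat5(SMC)-/- mouse 1 and Nfat5fl/fl mouse 2 together (without both lungs). Members called were 0, but 17 with array weights, 0 to 6 on leaving out 1 lung (6 without Nfat5(SMC)-/- mouse 1) and 8 without both lungs (Ndufv1, Ndufa2, Ndufs8, Ndufa1, Ndufa8, Ndufa10, Ndufb5 and Ndufb9). Members at an unadjusted p under 0.05 were 17, with 11 to 20 on leaving out 1 lung (11 without Nfat5(SMC)-/- mouse 2 or Nfat5fl/fl mouse 4). The cause of these changes was not tested.

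The median difference of the members was 0.29 to 0.41 on leaving out 1 lung. That of the Q module was 0.26 to 0.48 on leaving out 1 lung and 0.54 without both lungs, and that of the proximal P module 0.50 without both. Nfat5 passed the threshold with array weights (-1.29), without Nfat5(SMC)-/- mouse 1 (-1.20; -1.25 to -0.94 over single lungs) and without both lungs (-1.39).

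Members near 0 changed sign. With array weights Ndufs4 was at -0.061, Ndufs6 at 0.16, Ndufa3 at 0.16 and Ndufab1 at -0.12. Without both lungs Ndufs4 was at -0.063, Ndufs6 at 0.30, Ndufa5 at -0.11, Ndufa3 at 0.18, Ndufa11 at 0.00020 and Ndufab1 at -0.067. Corrected for gene span Ndufb3 was at -0.0025 and Ndufab1 at -0.022. On leaving out 1 lung the ranges were -0.11 to 0.18 for Ndufs4, -0.40 to 0.23 for Ndufs6, -0.10 to 0.30 for Ndufa5, -0.19 to 0.21 for Ndufa3, -0.12 to 0.15 for Ndufb3 and -0.14 to 0.12 for Ndufab1.

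The groups share mouse numbers, but the deviations of same-numbered lungs correlated at 0.13, 0.41 and 0.08 for mice 1, 2 and 4, and the lung of Nfat5(SMC)-/- mouse 4 correlated best with that of Nfat5fl/fl mouse 1 (0.15) rather than with its own number. All 3 are above 0, and mice 1 and 2 each correlated best with their own number. The skeletal muscle markers were highest in mouse 1 and lowest in mouse 2 of both groups, and Ndufab1 was also close between same-numbered lungs. The labels give no shared litter or day, so neither pairing by number nor its absence is established, and the block is given only here. With the replicate block by mouse number 0 genes and 0 members were called, and 16 members had an unadjusted p under 0.05.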
